A study of Mus musculus with 12 samples.

Results

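The cells described here are Gpnmb positive microglia-like cells of the neonatal mouse meninges, 337 of 2533 microglia-like cells and of 21689 kept cells in 4 single-cell gene expression libraries. A kept cell had 200 or more detected genes and no more than 10% of its UMIs (unique molecular identifiers, each counting 1 captured RNA molecule) from mitochondrial genes. It was called microglia-like where the summed UMIs of Sparc, P2ry12, Tmem119 and Sall1 were at least 3 and above the summed UMIs of the macrophage genes Mrc1, Cd163, F13a1, Cbr2 and Pf4. It was called Gpnmb positive where it held at least 2 UMIs of Gpnmb, and Gpnmb zero where it held none. The counts were 83, 71, 104 and 79 Gpnmb positive cells in HI 1, HI 2, naive 1 and naive 2, against 435, 591, 613 and 484 Gpnmb zero cells. A further 73 microglia-like cells held 1 Gpnmb UMI and were in neither class.

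Microglia are the resident macrophages of brain tissue, and in the unchallenged state they are recognised by genes such as P2ry12, Tmem119 and Cx3cr1. In the first postnatal week a second state is known from the developing white matter, with amoeboid cells that express Spp1 (osteopontin, a secreted matrix protein), Gpnmb (a transmembrane glycoprotein of endolysosomes), Igf1, Itgax and Lgals3. That programme overlaps with the one that microglia take on around plaques, demyelinated lesions and dying cells in the adult brain, in which P2ry12 and Tmem119 are turned down and genes of lysosomes and lipid handling are turned up.

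The study sampled the meninges, the membranes around the brain, of C57Bl/6j mice at postnatal day 4, either 6 h after HI (hypoxia-ischemia, a model of neonatal brain injury) or in naive mice, which served as controls and had no such injury. Each library was 1 pool of 12 mice, 6 males and 6 females, and there were 2 HI and 2 naive pools made with the 10x Genomics 5' kit. The samples went through 2 runs that each held 1 HI and 1 naive pool, and the labels do not say which pool belonged to which run. No sham-operated group is analysed here, so the handling of the HI mice and the injury cannot be told apart.

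The HI libraries held 4212 and 6410 kept cells and the naive libraries 5122 and 5945, from 51986763 to 68543046 UMIs per library. Pairs of libraries shared between 29 and 54 cell barcodes. Microglia-like cells made up 12.7% and 10.6% of kept cells in HI 1 and HI 2, and 14.5% and 9.74% in naive 1 and naive 2. The Gpnmb positive cells were deeper than their comparators, with a median of 21659 UMIs and 4154 genes per cell against 10759 UMIs and 3210 genes in Gpnmb zero cells. Their mitochondrial share was close, at a median of 2.71% against 2.61%. Deeper cells reach a count of 2 more easily, so the class comparison was also run after each cell was thinned to 5000 UMIs. Cells under 5000 UMIs were left out there, and the classes were set again on the thinned counts. Doublet scoring marked 9 of the 337 Gpnmb positive and 85 of the 2123 Gpnmb zero cells.

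Gpnmb itself was spread widely among the cells chosen by it. The lowest count was 2 UMIs, the median 17 and the highest 624, and 218 cells (64.7%) held 10 or more. The median per library was 14 in HI 1, 15 in HI 2, 22.5 in naive 1 and 17 in naive 2. At the edge of the rule, 27 cells held exactly 2 Gpnmb UMIs, just inside, and 73 held 1, just outside. The cells at 2 UMIs had 15684 CPM (UMIs scaled to a common total) of Spp1 and 617 of P2ry12, against 8521 and 1108 in the cells at 1 UMI. The microglia condition was met with a wide margin by most cells, with a median microglia sum of 46 UMIs and a median macrophage sum of 1. Another 111 kept cells with at least 2 Gpnmb UMIs failed the microglia condition, and in 109 of them the macrophage sum was at least as high as the microglia sum.

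The genes of the label were high together in these cells, which is described here without a test because the rule or the label chose them. Values per library are CPM (counts scaled to a common library total), summed over the cells of a class and scaled by edgeR's TMM factor, which discounts the most divergent genes, and are listed in HI 1, HI 2, naive 1 and naive 2. Gpnmb lies on chromosome 6 (49036518 to 49058182) and Spp1 on chromosome 5 (104435111 to 104441053) in RefSeq's annotation of GRCm38. Gpnmb stood at 2192, 1401, 2365 and 1973 in Gpnmb positive cells and at 0 by construction in Gpnmb zero cells. Spp1 stood at 41633, 28825, 32206 and 27417 in Gpnmb positive cells, against 2936, 1664, 1474 and 1500.2 in Gpnmb zero cells. The ratio of the Spp1 means was 17.2, every Gpnmb positive value lay above every Gpnmb zero value, and 97.0% of Gpnmb positive and 24.8% of Gpnmb zero cells held an Spp1 UMI. Spp1 UMIs were found in 1.11% to 3.49% per library of the cells called B cells, at median depths from 7883.5 to 10102 UMIs. These held at least 3 UMIs of Cd79a and Cd79b and at most 2 of microglia and macrophage genes. Cd79b was also found in 72.1% of Gpnmb positive and 64.3% of Gpnmb zero cells, so the call may not be specific. Of the other genes named here, Cd9 had UMIs in 28.9% to 63.2% and Lgals3 in 15.6% to 34.2% of the called B cells. Lgals3 was found in 5.08% to 21.6% of Gpnmb zero cells, a lower share in each library. Whether the called B cells lack Cd9 and Lgals3 was not tested, so these percentages cannot be read as background.

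The other label markers differed less. Csf1, the growth factor that sustains microglia through the receptor Csf1r, stood at 586, 414, 505 and 406 in Gpnmb positive cells, against 185, 103, 117 and 85.7 in Gpnmb zero cells, a ratio of means of 3.89. Cd9, a tetraspanin, stood at 4756, 4566, 5867 and 4755 in Gpnmb positive cells, against 1442, 984, 1498 and 1423 in Gpnmb zero cells, a ratio of 3.73. Neither gene's ranges overlapped between the classes. Baiap2l2, a membrane-bending adaptor, had a ratio of 5.68, with 150.4, 125, 208 and 179 in Gpnmb positive cells, against 27, 15.3, 25.5 and 48.7 in Gpnmb zero cells. Lag3, an inhibitory receptor better known from lymphocytes, had a ratio of 2.65, with 904, 721, 1043 and 616 in Gpnmb positive cells, against 317, 269, 338 and 316 in Gpnmb zero cells. After thinning, the classes set again on the thinned counts held 244 Gpnmb positive and 2094 Gpnmb zero cells. Of these, 186 Gpnmb positive (76.2%) and 243 Gpnmb zero cells (11.6%) held at least 4 of the 5 label markers other than Gpnmb. Fewer than 2 were held by 0 Gpnmb positive but 648 Gpnmb zero cells (30.9%).

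The label of microglia rests on the rule's own genes, and these were lower in Gpnmb positive than in Gpnmb zero cells. P2ry12, the purinergic receptor that steers microglial processes, stood at 304, 441, 479.6 and 540.3 in Gpnmb positive cells, against 1504, 2205, 2803 and 2912 in Gpnmb zero cells, 5.34 times lower by the means. Tmem119 was 7.52 times lower, with 32.4, 54.5, 53.8 and 88.2 in Gpnmb positive cells, against 305, 447, 465 and 503 in Gpnmb zero cells. Sparc was 1.73 times lower, with 1600.4, 1764, 1944 and 2016 in Gpnmb positive cells, against 2699, 3022, 3517 and 3456 in Gpnmb zero cells, and carried most of the microglia sum. Sall1, the transcription factor of microglial identity, ran from 75.6 to 109.7 in Gpnmb positive and from 107 to 134 in Gpnmb zero cells, so that its ranges overlapped. The macrophage genes of the rule were low in both classes and lower in Gpnmb positive cells by the means, Mrc1 by 2.10, Cbr2 by 3.27, Cd163 by 3.91, F13a1 by 4.34 and Pf4 by 4.35 times. The ranges of Pf4 and Cd163 overlapped between the classes, and more Gpnmb positive than Gpnmb zero cells held a Pf4 UMI (27.9% against 15.9%).

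**Figure D1:**
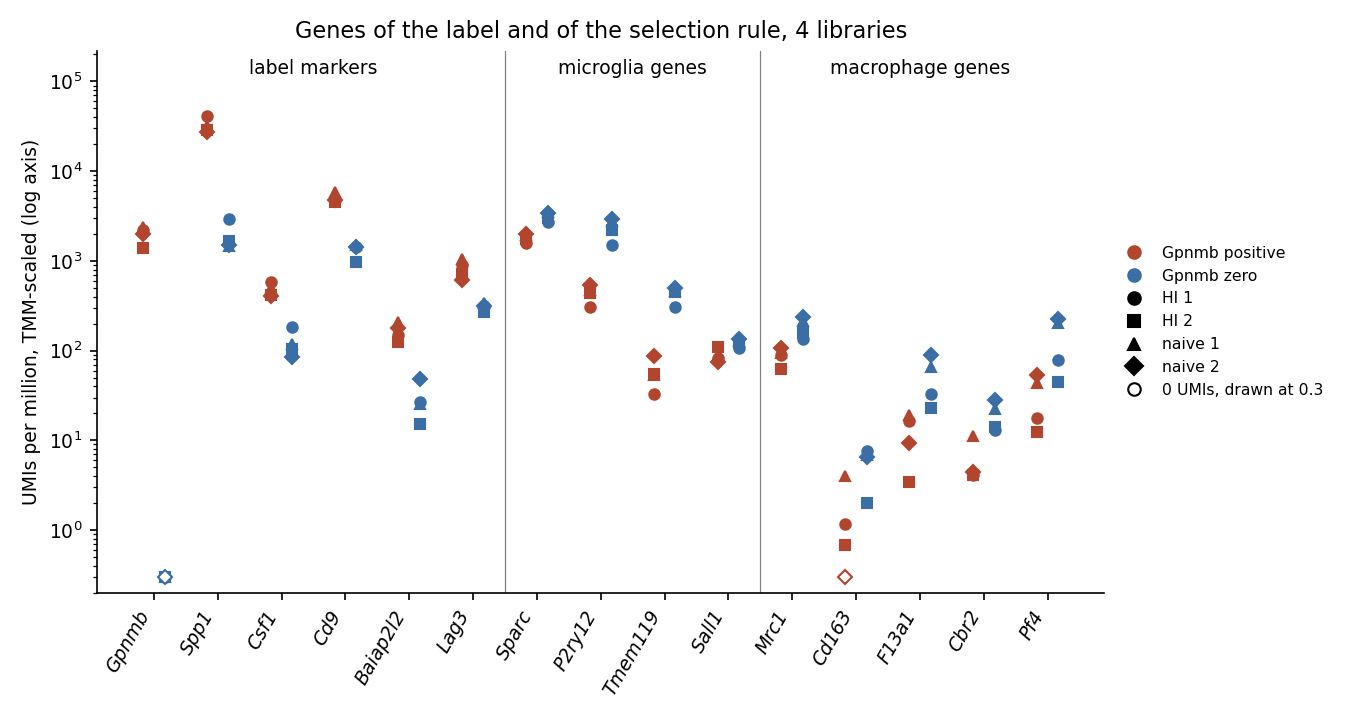
CPM (TMM-scaled, log axis) of the 6 label markers, the 4 microglia genes and the 5 macrophage genes of the rule, 1 point per library, Gpnmb positive cells in red to the left of Gpnmb zero cells in blue. All 4 Spp1 points of Gpnmb positive cells lie between 27417 and 41633, above all 4 points of Gpnmb zero cells, and P2ry12 and Tmem119 lie lower in Gpnmb positive cells.

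The microglia-like cells were also grouped by their Gpnmb count, again as a description, and some genes of the state followed the count while others did not. The groups held 2123, 73, 27, 92, 90 and 128 cells at 0, 1, 2, 3 to 9, 10 to 29 and 30 or more Gpnmb UMIs, and their median depths lay between 10759 UMIs at 0 and 27673.5 UMIs at 30 or more. Values here are CPM without TMM scaling, pooled over libraries. Spp1 stood at 2061, 8521, 15684, 20158, 27042 and 37322 in these groups in that order, and Igf1 at 152, 574, 625, 638, 952 and 1190.4. Itgax, the integrin known as CD11c, stood at 17.2, 71.4, 101, 150.4, 191 and 257. Each of these genes was higher with every step in Gpnmb, with the largest ratio between 0 and 1 UMI. Lgals3 (galectin-3) stood at 58.2, 294, 209.6, 216, 486 and 616, with no steady order below 10 UMIs. Other genes of the state were higher at 1 UMI than at 0 and had no steady order beyond 2. Csf1 stood at 135, 322, 514, 363, 477 and 432, Lag3 at 345, 631, 861, 761, 792 and 725, Baiap2l2 at 31.6, 139.8, 160.1, 122, 146 and 170.2 and Lpl at 615, 1201, 1311, 1048, 1400.4 and 923. The microglia genes ran the other way, P2ry12 at every step. P2ry12 stood at 2642, 1108, 617, 591, 423 and 257, Cx3cr1 at 1798, 1326, 1159, 1073, 1085 and 868, and Tmem119 at 480.4, 134, 49.5, 82.2, 46.6 and 38.2.

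**Figure D2:**
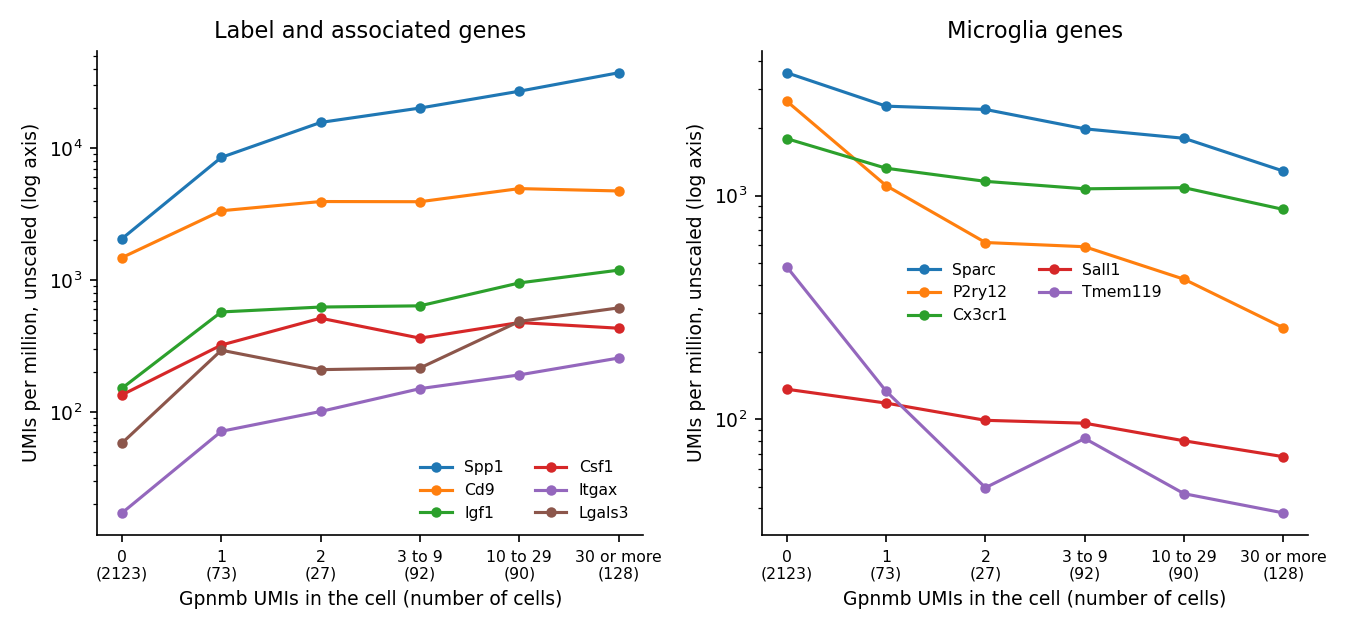
CPM (unscaled, log axis) against the Gpnmb count of the cell, pooled over 4 libraries, with the number of cells under each group. Spp1, Igf1 and Itgax are higher in each group than in the one before it, and P2ry12 and Sparc are lower in each.

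Beyond the label, the cells differed from Gpnmb zero cells in much of the transcriptome. In edgeR's quasi-likelihood test on summed UMIs, with the library as a block and Benjamini-Hochberg adjustment, 3763 of 10272 tested genes passed an adjusted p of 0.05 (36.6%), 2048 higher (19.9%) and 1715 lower (16.7%) in Gpnmb positive cells. A fitted change of at least 2-fold was reached by 377 of the higher and 386 of the lower genes. The genes named next are from the 12 with the largest fitted change each way among those called, in 1 direction in all 4 libraries and detected in at least 25% of the cells of the higher class. Over all tested genes 50.3% had 1 direction in all 4 libraries. All 24 kept their direction and their call under each of the 14 alternative settings.

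The highest-ranked gene was Atp6v0d2, a subunit of the proton pump that acidifies lysosomes. It stood at 169, 69.5, 118 and 58.6 CPM in Gpnmb positive cells, against 0.616, 0.269, 2.26 and 0.460 in Gpnmb zero cells (log2 6.71 ± 0.23 SE, adjusted p = 2.21e-10), with a UMI in 36.8% of Gpnmb positive and 0.612% of Gpnmb zero cells. It is also abundant in osteoclasts, and of the osteoclast markers tested Acp5 was also higher (log2 1.12, adjusted p = 0.00641) and Nfatc1 lower (log2 -0.58, adjusted p = 9.77e-04). The call of Acp5 ended without naive 1 (log2 0.72, adjusted p = 0.0772) and that of Nfatc1 after thinning (adjusted p = 0.26), and Ctsk, Calcr, Dcstamp and Ocstamp were at 0 in all Gpnmb positive sums. Itgax stood at 231, 158, 308 and 179 in Gpnmb positive cells, against 12.5, 9.68, 20.2 and 19 in Gpnmb zero cells (log2 3.84 ± 0.13 SE, adjusted p = 1.70e-10). Hpse (heparanase, which cleaves heparan sulfate) stood at 125, 109.7, 182 and 149 in Gpnmb positive cells, against 15.1, 10.4, 15.7 and 16.5 in Gpnmb zero cells (log2 3.30 ± 0.10 SE, adjusted p = 5.56e-11). The classes did not overlap in Atp6v0d2, Itgax and Hpse, which their selection for a large change in 1 direction in all 4 libraries favoured. The share of all tested genes without overlap is not given here.

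Cytosolic carriers of fatty acids were among the highest. Fabp5 stood at 3613, 2464, 3013 and 2145 in Gpnmb positive cells, against 361, 212, 175 and 181 in Gpnmb zero cells (log2 3.63 ± 0.10 SE, adjusted p = 2.73e-11). Fabp3, the form named for heart muscle, stood at 164, 101, 137 and 104 in Gpnmb positive cells, against 17.7, 9.14, 15.7 and 17.5 in Gpnmb zero cells (log2 3.08 ± 0.12 SE, adjusted p = 6.23e-10). Both were higher in every library, as their selection required. Lgals3 stood at 737, 563, 449.5 and 342 in Gpnmb positive cells, against 146, 19.9, 22.3 and 35.9 in Gpnmb zero cells (log2 3.58 ± 0.29 SE, adjusted p = 5.73e-07), and the Gpnmb zero cells of HI 1 stood apart at 146. The remaining higher genes were Mamdc2 (log2 4.65), Cd200r4 (3.76), the co-stimulatory receptor Cd28 (3.21), the ion exchanger Slc24a5 (3.14), the secretory pathway kinase Fam20c (3.12) and the membrane repair protein Myof (3.10). Fam20c phosphorylates secreted proteins, osteopontin among them.

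The genes that were lower included surface and uptake proteins of quiescent microglia. Adgrg1 (GPR56, an adhesion receptor) stood at 11.8, 21.1, 10.8 and 14.5 in Gpnmb positive cells, against 55.9, 74.8, 84.7 and 85.7 in Gpnmb zero cells (log2 -2.41 ± 0.15 SE, adjusted p = 4.70e-08). Slc2a5, the fructose transporter GLUT5, stood at 17.1, 17, 17.9 and 22 in Gpnmb positive cells, against 63.4, 88.6, 90.9 and 92.6 in Gpnmb zero cells (log2 -2.18 ± 0.11 SE, adjusted p = 5.22e-09). Neither gene's ranges overlapped between the classes, which the selection of both genes favoured. Spint1, an inhibitor of serine proteases, stood at 12.4, 12.9, 7.17 and 6.93 in Gpnmb positive cells, against 66.4, 96.3, 44.4 and 48.1 in Gpnmb zero cells (log2 -2.68 ± 0.12 SE, adjusted p = 3.46e-09), and Asb2 at 5.31, 6.81, 3.14 and 12 in Gpnmb positive cells, against 43.6, 43.8, 43.8 and 43.8 in Gpnmb zero cells (log2 -2.75 ± 0.21 SE, adjusted p = 3.51e-07). The others were Tmem44 (log2 -2.75), Serpinf1 (-2.68), Igfbp4 (-2.07), Bank1 (-2.0), Fscn1 (-1.99), the glutamate transporter Slc1a3 (-1.92) and the sialyltransferase St3gal6 (-1.88).

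**Figure D3:**
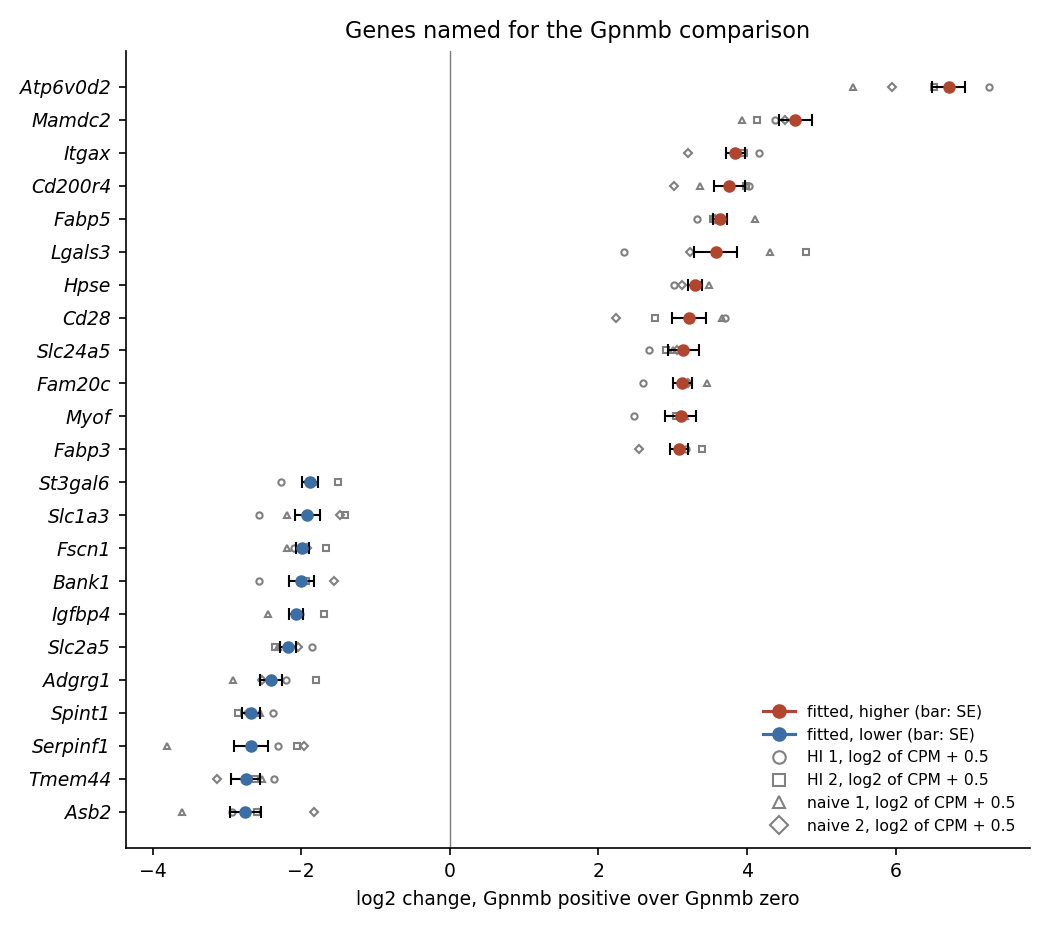
Log2 change of Gpnmb positive over Gpnmb zero cells for 12 higher and 11 lower named genes, with the fitted value and its SE as filled points and bars, and 1 open symbol per library. Atp6v0d2 leads at 6.71 ± 0.23. Genes were selected for 1 direction in all 4 libraries, so each library lies on the fitted side of 0 by selection.

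The disease- and development-associated microglia genes were higher almost throughout, 27 of 28 tested, against 19.9% of all tested genes, with 0 lower and a median log2 change of 1.51, against -0.04 over all genes. Igf1, a growth factor for neurons and oligodendrocytes, averaged 1046 ± 218 in Gpnmb positive cells and 136 ± 27 in Gpnmb zero cells (SD, n = 4 libraries, log2 2.94 ± 0.06 SE, adjusted p = 8.36e-12). It had a UMI in 99.1% of Gpnmb positive and 42.2% of Gpnmb zero cells. Anxa5, which binds phosphatidylserine, averaged 609 ± 53 in Gpnmb positive cells and 139.9 ± 16.3 in Gpnmb zero cells (SD, n = 4; log2 2.13, adjusted p = 1.80e-11). Lpl, which frees fatty acids from triglyceride, stood at 1494, 1209.7, 1089 and 1142 in Gpnmb positive cells, against 1012, 332, 491 and 433 in Gpnmb zero cells (log2 1.24, adjusted p = 1.30e-05), with the highest Gpnmb zero value again in HI 1. Here and below the counts cover the members of a list that had enough UMIs to be tested. Some genes are on more than 1 list, so the counts of different lists are not separate results. Apoe, Lpl and Fabp5 are also on the lipid list, Ctsb, Ctsl and Cd63 on the lysosome list and Trem2 on the homeostatic list. The gene that did not pass was Axl, a receptor for apoptotic cells, at log2 0.32. Many of these genes were listed from earlier descriptions of the same state, so the count describes the cells and is not independent evidence of their identity.

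Homeostatic microglia genes outside the rule were lower in 19 of 24 and higher in 3 (median log2 -0.49). Over all tested genes 16.7% were lower and 19.9% higher. Crybb1, a crystallin enriched in neonatal microglia, stood at 339, 383, 484 and 457 in Gpnmb positive cells, against 1192, 1698, 1434 and 1601 in Gpnmb zero cells (log2 -1.83, adjusted p = 8.73e-10). Selplg, a selectin ligand, stood at 113, 139.6, 124 and 141 in Gpnmb positive cells, against 339, 418, 482 and 540.0 in Gpnmb zero cells (log2 -1.77, adjusted p = 1.26e-09). Siglech fell by 1.32 on the log2 scale, Csf1r by 0.63 and the fractalkine receptor Cx3cr1 by 0.56. Csf1r stayed abundant, at 1681, 1822, 1937 and 2123 in Gpnmb positive cells, against 2441, 2984, 3086 and 3180.4 in Gpnmb zero cells. The higher genes included the lipid-sensing receptor Trem2 (log2 0.42, adjusted p = 2.52e-06) and the protease inhibitor Serpine2.

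Lysosomal genes were higher in 30 of 35, against 19.9% of all tested genes (median log2 0.75). The cathepsins Ctsd, Ctsb and Ctsl, proteases of the lysosome, were among the most abundant transcripts of the list. Ctsl stood at 13739.7, 12761, 14631 and 12908 in Gpnmb positive cells, against 5318, 5319, 4973 and 5446 in Gpnmb zero cells (log2 1.36, adjusted p = 3.59e-10), and Ctsd at log2 1.23 and Ctsb at 1.20 were similar. Cd63, a tetraspanin of late endosomes, averaged 2945 ± 232 in Gpnmb positive cells and 1188 ± 127 in Gpnmb zero cells (SD, n = 4; log2 1.31, adjusted p = 2.88e-10). Mitf, a transcription factor of lysosomal and pigment genes that drives Gpnmb in melanocytes and osteoclasts, stood at 161, 131, 175 and 127 in Gpnmb positive cells, against 77.9, 55.4, 76.1 and 72.9 in Gpnmb zero cells (log2 1.08, adjusted p = 3.18e-07). Tfeb, a related factor, had 12.4, 18.4, 28.7 and 21.4 in Gpnmb positive cells, against 10.6, 14.8, 11.8 and 15 in Gpnmb zero cells (log2 0.66, adjusted p = 0.0147), the classes overlapped, and the call ended without naive 1 (log2 0.36, adjusted p = 0.168), with DESeq2 and on total UMIs. Ctsh was the lower exception (log2 -0.34, adjusted p = 3.15e-04).

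Genes of lipid handling were higher in 15 of 19, against 19.9% of all tested genes, with 0 lower (median log2 1.07). Apoe, the main apolipoprotein of the brain, took 1.88% of all UMIs in Gpnmb positive and 1.09% in Gpnmb zero cells (log2 1.07, adjusted p = 2.06e-09). Pld3, a lysosomal nuclease and lipid enzyme, stood at 989, 898, 1233 and 997 in Gpnmb positive cells, against 259, 203, 288 and 259 in Gpnmb zero cells (log2 2.03, adjusted p = 1.80e-11). Soat1, which esterifies cholesterol for storage, stood at 273, 253, 268 and 222 in Gpnmb positive cells, against 108, 79.6, 84 and 81.7 in Gpnmb zero cells (log2 1.53, adjusted p = 3.64e-09), and Nceh1, which hydrolyses such esters, was also higher (log2 1.89, adjusted p = 1.84e-08). The lipid droplet coat gene Plin2 averaged 741 ± 39.9 in Gpnmb positive cells and 346 ± 63.6 in Gpnmb zero cells (SD, n = 4; log2 1.11, adjusted p = 8.56e-08). Abca1 and Lrp1 change direction when total UMIs set the scale.

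Genes of glycolysis and hypoxia were higher in 20 of 26, against 19.9% of all tested genes, with 0 lower (median log2 1.12). Pkm, the last enzyme of glycolysis, stood at 1816, 1773, 1660.0 and 1402 in Gpnmb positive cells, against 778, 684, 618 and 549 in Gpnmb zero cells (log2 1.34, adjusted p = 1.70e-10). Gapdh stood at 2514, 1650.4, 1901 and 1461 in Gpnmb positive cells, against 1159, 655, 837 and 623 in Gpnmb zero cells (log2 1.21, adjusted p = 3.65e-10). The cytokine and tautomerase Mif averaged 1541 ± 221 in Gpnmb positive cells and 509.9 ± 108 in Gpnmb zero cells (SD, n = 4; log2 1.61, adjusted p = 1.04e-09). These differences were present in both naive libraries. Vegfa and Adm, targets of hypoxia-inducible factor that are not glycolytic enzymes, had too few UMIs to enter the test. Members outside glycolysis that were tested and higher included Bnip3 (log2 1.48, adjusted p = 1.41e-08), Ankrd37 (log2 1.12) and Higd1a (log2 0.45). The calls of Ankrd37 and Higd1a ended after thinning, and P4ha1 and Egln1 did not pass. Egln3, an oxygen-sensing hydroxylase, was higher at a low level (log2 2.78, adjusted p = 3.15e-06). Iron and antioxidant genes were higher in 10 of 16 and lower in 1, led by ferritin light chain Ftl1 (log2 1.29, adjusted p = 1.27e-10) and heavy chain Fth1 (log2 1.02, adjusted p = 1.42e-09).

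Several lists ran the other way or were split. Immediate-early genes were lower in 11 of 16 and higher in 2 (median log2 -0.63). Junb stood at 70.2, 64, 57.4 and 52.3 in Gpnmb positive cells, against 134, 111, 143 and 135 in Gpnmb zero cells (log2 -1.11, adjusted p = 1.27e-06), while Atf3 was higher, with 111, 61.3, 95.5 and 109.6 in Gpnmb positive cells, against 48.7, 18.6, 25.6 and 24.7 in Gpnmb zero cells (log2 1.72, adjusted p = 3.13e-07). Cell cycle genes were lower in 11 of 28 and higher in 1 (lower in 23 on total UMIs, 7 after thinning and 5 with DESeq2), with Top2a (topoisomerase of dividing cells) at 58.4, 116, 64.1 and 59.2 in Gpnmb positive cells, against 142, 144, 136 and 142 in Gpnmb zero cells (log2 -0.96, adjusted p = 7.04e-05). NF-kB and inflammatory cytokine genes were higher in 4 and lower in 8 of 19, against 19.9% higher and 16.7% lower over all tested genes, so that the higher share was close to that of all genes. The higher ones included the interleukin-1 receptor antagonist Il1rn (log2 1.90, adjusted p = 8.03e-07) and Il1b (log2 1.61, adjusted p = 0.0268), of whose 237 Gpnmb positive UMIs in HI 1 a single cell held 234. Without HI 1 the change of Il1b turned to -0.82 (adjusted p = 0.366), and with DESeq2 to -0.52. Chemokines were higher in 5 and lower in 3 of 11, with Ccl3 higher (log2 1.18, adjusted p = 2.23e-07) and Ccl12 lower (log2 -1.66, adjusted p = 2.27e-09). Ccl4 was also higher (log2 0.99, adjusted p = 0.0181). Its call ended with DESeq2 (log2 0.82, adjusted p = 0.416) and on total UMIs (log2 0.69, adjusted p = 0.0594).

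The remaining lists were split or had medians near 0, and their counts stand against 19.9% higher and 16.7% lower over all tested genes. Phagocytosis and bridging genes were higher in 8 and lower in 5 of 25 (median log2 0.12), with the adaptor Tyrobp higher (log2 0.89, adjusted p = 4.19e-09), the engulfment gene Elmo1 lower (log2 -0.97, adjusted p = 1.57e-06), and the complement gene C1qb at 6805, 6497, 6520.1 and 5855 in Gpnmb positive cells, against 6538, 7152, 6020.3 and 5702 in Gpnmb zero cells (log2 0.02, adjusted p = 0.775). MHC genes were higher in 5 and lower in 4 of 12, class I H2-D1 higher (log2 0.75, adjusted p = 1.62e-07) and class II Cd74 lower (log2 -1.50, and -0.55 with an adjusted p of 0.0869 after thinning). Interferon response genes were higher in 4 and lower in 1 of 20, the higher share being that of all genes, unfolded protein and ATF4 response genes higher in 8 and lower in 6 of 22, glucocorticoid response genes higher in 2 and lower in 4 of 13, and matrix, protease and adhesion genes higher in 10 and lower in 5 of 22. Secreted growth factors were higher in 3 and lower in 2 of 9. Igf1, Grn (log2 0.75, adjusted p = 1.35e-08) and Vegfb were the higher ones, of which Vegfb was not called with DESeq2 (adjusted p = 0.075). When cells with markers of stroma, vessels, choroid plexus or neurons were removed, the lower gene Ptn was no longer tested and Mdk turned to log2 1.40 (adjusted p = 0.00335). After thinning, the counts higher and lower were 4 and 0 of 12 for MHC, 1 and 1 of 11 for interferon, 6 and 3 of 19 for unfolded protein, 2 and 1 of 11 for glucocorticoid and 6 and 3 of 18 for matrix genes, and the medians of the growth factor and unfolded protein lists turned to -0.13 and -0.06. On total UMIs phagocytosis genes were higher in 5 and lower in 12, glucocorticoid genes in 2 and 10 and unfolded protein genes in 4 and 11. The medians of the MHC, interferon, matrix, phagocytosis, growth factor and unfolded protein lists change sign when total UMIs set the scale.

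**Figure D4:**
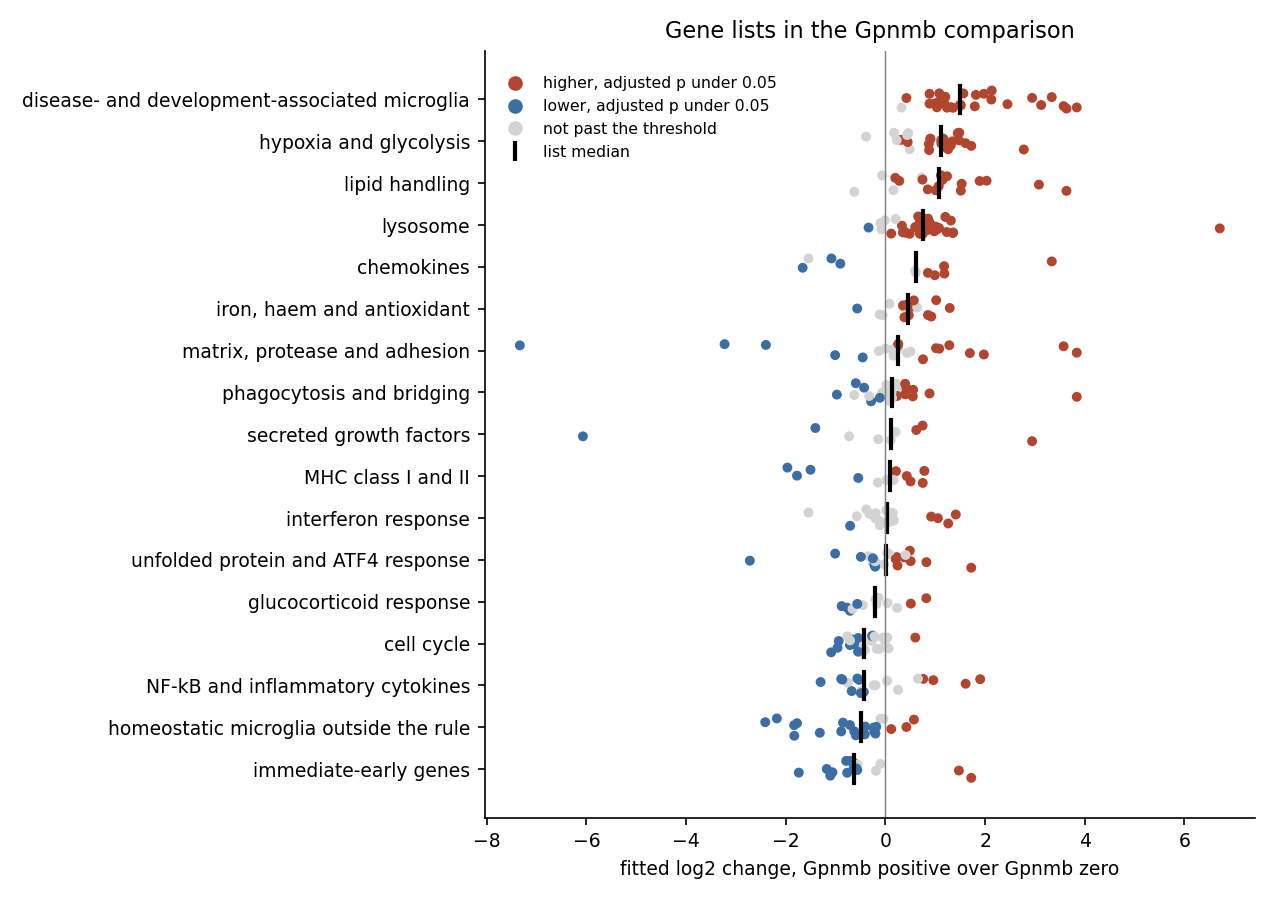
Fitted log2 change of Gpnmb positive over Gpnmb zero cells for every tested gene of the 17 gene lists, 1 point per gene, red where higher and blue where lower at an adjusted p of 0.05 and grey otherwise, with the list median as a black bar. The medians run from 1.51 for disease- and development-associated microglia genes to -0.63 for immediate-early genes.

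A few transcripts took a large share of the Gpnmb positive libraries. Spp1 alone took 2.94% of the UMIs of Gpnmb positive and 0.206% of those of Gpnmb zero cells, and the 10 genes with the largest gain in share took 12.6% against 5.23%. Without TMM scaling, the median gene moved by -0.34 on the log2 scale in place of -0.04, and 924 genes were higher and 4781 lower. On that scale the disease- and development-associated list still had 25 genes higher and 0 lower, the lysosome list 24 higher and 5 lower, the hypoxia and glycolysis list 18 higher and 1 lower, and the homeostatic list 2 higher and 22 lower. After thinning to 5000 UMIs per cell, 1691 genes were called, and the disease- and development-associated list had 24 of 25 higher. Of the 3363 genes called on all UMIs and tested in both, 3296 had the same direction after thinning and 1602 (47.6%) were called again.

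Markers of other cell types are given as CPM summed over each list, as ranges over the 4 libraries. Fibroblast and stroma markers ran from 2.52 to 8.85 in Gpnmb positive and from 43.2 to 3165 in Gpnmb zero cells, choroid plexus markers from 4.77 to 8.07 and from 5.51 to 1904, and neuronal markers from 4.13 to 7.17 and from 38.5 to 104. The highest stroma sum was that of the Gpnmb zero cells of HI 1, from Ptgds at 3082, and the choroid plexus sums above 1000 were those of the naive libraries, from Ttr at 1646 and 1871. At least 3 UMIs of such markers were present in 6 of 337 Gpnmb positive and 116 of 2123 Gpnmb zero cells. Without them 3680 genes were called between the classes. Neutrophil markers ran from 91.3 to 1094 in Gpnmb positive and from 75.8 to 429 in Gpnmb zero cells, with S100a9 at 355, 1.36, 462 and 0 in Gpnmb positive cells, against 158, 4.97, 2.62 and 53.3 in Gpnmb zero cells, and Ly6g at 0 in every sum. The part of neutrophil RNA in other results was not tested.

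Border macrophage markers outside the rule summed to between 1654 and 2011 in Gpnmb positive and between 1608 and 1902 in Gpnmb zero cells, a sum carried by Gas6, Stab1 and Maf. Folr2 was higher, with 134, 89.2, 116 and 85.6 in Gpnmb positive cells, against 29.3, 18.8, 45.7 and 36.8 in Gpnmb zero cells (log2 1.72, adjusted p = 1.27e-06), and Lyve1 lower, with 4.13, 2.04, 19.3 and 8.82 in Gpnmb positive cells, against 14.9, 17.3, 71.6 and 91.3 in Gpnmb zero cells (log2 -2.42, adjusted p = 1.02e-06). The sums in Gpnmb positive and Gpnmb zero cells were 205 to 280 and 586 to 712 for dendritic cells (mainly Siglech, with Ccr7, Clec9a and Xcr1 at 0 in Gpnmb positive cells), 229 to 343 and 249 to 420.5 for the B lineage, and 88.2 to 209 and 45.8 to 58.8 for osteoclasts, mainly Atp6v0d2 in Gpnmb positive and Nfatc1 in Gpnmb zero cells. They were 358 to 413 and 291 to 461 for astrocytes (mainly Dbi, with Aqp4 at 0 in Gpnmb positive cells), 69.0 to 88.8 and 68.7 to 112 for the oligodendrocyte lineage, 8.17 to 66.7 and 21.3 to 65.3 for classical monocytes, and 14.3 to 46.6 and 27.1 to 43.7 for non-classical monocytes. T and natural killer cell sums were 3.54 to 17.7 and 5.92 to 37.8, endothelial and mural sums 4.41 to 8.85 and 12.9 to 21.9, basophil and mast cell sums 0 to 2.69 and 0.766 to 4.77, and red cell sums 0 to 15.7 and 0 to 0.238.

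The first question by condition was whether the injury was accompanied by another share of Gpnmb positive cells. They made up 15.5% of microglia-like cells in HI 1 (95% Clopper-Pearson interval 12.6% to 18.9%) and 10.5% in HI 2 (8.27% to 13%), against 14% in naive 1 (11.6% to 16.7%) and 13.6% in naive 2 (11% to 16.7%). The means were 13 ± 3.57% in HI and 13.8 ± 0.276% in naive libraries (SD, n = 2 each), a log2 ratio of -0.09 (exact permutation test, 2-sided, p = 1), in a design whose smallest possible p is 0.333. The naive values lie between the HI values. After thinning, the shares were 10.3% and 7.84% in HI, against 12.3% and 10.1% in naive libraries (exact permutation test, 2-sided, p = 0.667). Of all kept cells they made up 1.97% and 1.11% in HI, against 2.03% and 1.33% in naive libraries. The intervals cover counting error only. Each library is a separate pool, so p-values measure the spread between pools and would include a difference between runs.

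The label markers were also compared over all microglia-like cells whatever their Gpnmb count, a fit that the Gpnmb threshold did not enter. It called 13 of 11474 genes (0.113%), and none of the 6 markers. That count was 163 without HI 1, 550 without HI 2, 5 without naive 1 and 1 without naive 2. Gpnmb stood at 467 and 241 in HI, against 502 and 396 in naive libraries (log2 -0.34 ± 0.28 SE, adjusted p = 0.618), and Spp1 at 11544 and 6707 in HI, against 8421 and 6832 in naive libraries (log2 0.26 ± 0.23 SE, adjusted p = 0.652). The groups overlapped in both. Csf1 was at log2 0.30, Cd9 at -0.26, Baiap2l2 at -0.59 and Lag3 at -0.14. Leaving out HI 1 turned Spp1 to -0.18 and Csf1 to -0.15, leaving out HI 2 turned Gpnmb to 0.052, and leaving out naive 1 turned Lag3 to 0.038.

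Within Gpnmb positive cells, edgeR's quasi-likelihood test called 0 of 8586 genes between HI and naive libraries (0%), while 573 had an unadjusted p under 0.05 (6.67%) and DESeq2 called 2, Ccl12 and Socs3. Both HI libraries lay above both naive libraries in 18.3% of tested genes and below them in 18.5%. Leaving out 1 library gave 11 calls without HI 1, 31 without HI 2, 12 without naive 1 and 39 without naive 2. The 5 genes with the smallest p each way are given as values. The monocyte-attracting chemokine Ccl12 stood at 99.7 and 90.6 in HI, against 40.8 and 27.7 in naive libraries (log2 1.45 ± 0.19 SE, adjusted p = 0.116). Of its UMIs, 48.5% in HI 1 and 30.8% in HI 2 came from 1 cell, and 42.2% and 42.3% of cells held a UMI in HI, against 42.3% and 32.9% in naive libraries. Socs3, an inhibitor of cytokine signalling through STAT3, stood at 41.9 and 17.7 in HI, against 2.69 and 1.89 in naive libraries (log2 3.65 ± 0.54 SE, adjusted p = 0.155). It was found in 21.7% and 25.4% of cells in HI, against 5.77% and 2.53% in naive libraries, and 52.1% of its UMIs in HI 1 came from 1 cell.

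The other higher genes were Rrm2, a subunit of ribonucleotide reductase, at 101 and 96.7 in HI, against 54.7 and 41.6 in naive libraries (log2 1.03 ± 0.16 SE, adjusted p = 0.159), Fn1 (fibronectin) at 25.4 and 34.1 in HI, against 8.96 and 6.93 in naive libraries (log2 1.86 ± 0.31 SE, adjusted p = 0.159), and Cd72 at 21.2 and 38.8 in HI, against 6.27 and 5.04 in naive libraries (log2 2.36 ± 0.39 SE, adjusted p = 0.159). A single cell held 84.2% of the Cd72 UMIs of HI 2. For Fn1, 1 cell held 25.6% of the UMIs in HI 1, 46% in HI 2, 50% in naive 1 and 45.5% in naive 2. Cells with an Fn1 UMI made up 18.1% and 14.1% in HI, against 7.69% and 5.06% in naive libraries. Among the lower genes Ypel3 stood at 71.4 and 77 in HI, against 132 and 143 in naive libraries (log2 -0.89 ± 0.13 SE, adjusted p = 0.155). The adiponectin receptor Adipor1 (log2 -0.53), Zfand5 (-0.76), Tmem160 (-0.76) and the lysosomal iduronidase Idua (-0.98) followed, with adjusted p from 0.28 to 0.322. Tmem160 turned to 0.090 after thinning. In each of these genes both HI libraries lay on 1 side of both naive libraries.

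Gpnmb zero cells, the larger class, had 26 of 11178 genes called between HI and naive libraries (0.233%), 11 higher (0.0984%) and 15 lower (0.134%). Both HI libraries lay above both naive libraries in 21.2% of tested genes and below them in 27.0%. Ccl12 was higher there, with 312 and 299.7 in HI, against 115 and 97.2 in naive libraries (log2 1.55, adjusted p = 0.00204). Socs3 was higher, with 47.9 and 75 in HI, against 16.1 and 13.9 in naive libraries (log2 2.06, adjusted p = 0.022). Other higher genes by the naming rule were the zinc transporter Slc39a14 (log2 1.75, adjusted p = 0.0266), the Fc receptor Fcgr4 (log2 1.25, adjusted p = 0.0324) and the growth regulator Myc (log2 1.10, adjusted p = 0.0113), followed by Atad3a, Atic, Bri3bp, Bola2 and C1qbp. The immediate-early gene Fos was lower, with 12.3 and 14.1 in HI, against 52.8 and 41.2 in naive libraries (log2 -1.80, adjusted p = 0.0113), and in Gpnmb positive cells it had 7.08 and 7.49 in HI, against 19.7 and 18.9 in naive libraries (log2 -1.40, adjusted p = 0.431). Dusp1, a phosphatase of the same early response, was lower as well (log2 -1.38, adjusted p = 0.0266), as were Lyve1 (log2 -2.30, adjusted p = 0.00283), the endothelin receptor Ednrb, Fcna and Hacd4. Lyve1 and Fcna are on the list of border macrophage markers. The macrophage genes of the rule summed to 266 and 242 CPM in Gpnmb zero cells in HI, against 512 and 586 in naive libraries. The part of macrophage RNA in the lower Lyve1 and Fcna was not tested. The calls depend on single libraries, with 364 without HI 1, 879 without HI 2, 6 without naive 1 and 1 without naive 2. Without cells holding markers of stroma, vessels, choroid plexus or neurons there were 116.

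**Figure D5:**
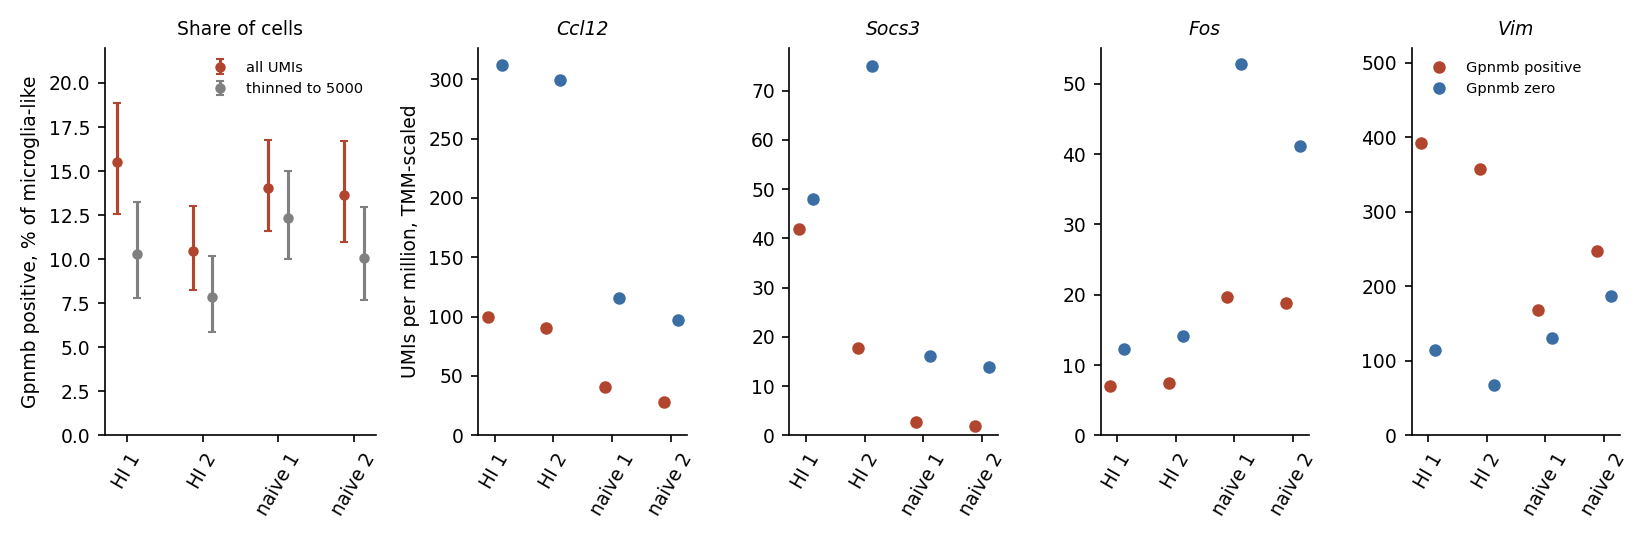
Left, the Gpnmb positive share of microglia-like cells per library with its 95% Clopper-Pearson interval, on all UMIs and after thinning to 5000 UMIs; right, CPM (TMM-scaled) of Ccl12, Socs3, Fos and Vim per library, Gpnmb positive cells in red and Gpnmb zero cells in blue. Ccl12 and Socs3 lie higher and Fos lower in both HI libraries in either class, and Vim lies higher in HI in the red points and lower in the blue.

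The difference of the HI effect between the classes was tested as an interaction, with the library as a block, and 1 of 10863 genes passed (0.00921%), against 612 at an unadjusted p under 0.05. Without HI 1 the count was 87, without HI 2 61, without naive 1 9 and without naive 2 19. The gene called with all libraries was Vim, the intermediate filament vimentin, and it was also called with each library left out. In Gpnmb positive cells Vim stood at 392 and 357 in HI, against 168 and 247 in naive libraries, and in Gpnmb zero cells at 114 and 67.5 in HI, against 131 and 186 in naive libraries. The difference of the log2 changes was 1.69 ± 0.17 SE (adjusted p = 0.00411), and the groups did not overlap in either class. Neither change passed within its own class (log2 0.86 in Gpnmb positive cells and -0.78 in Gpnmb zero cells). Cells with a Vim UMI made up 73.5% and 78.9% of Gpnmb positive cells in HI, against 70.2% and 75.9% in naive libraries, and 24.4% and 19.5% of Gpnmb zero cells in HI, against 24.3% and 27.7% in naive libraries. Vim is abundant in stroma and endothelium, and without the cells that held markers of stroma, vessels, choroid plexus or neurons the difference was 1.24 (adjusted p = 0.767).

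For the lists given here, the median HI changes lay between -0.43 and 0.48 on the log2 scale. In Gpnmb positive cells no gene of any list was called. The interferon response list is not among those given here and is described with the closing observations. The median log2 changes in Gpnmb positive and Gpnmb zero cells were 0.16 and 0.25 for hypoxia and glycolysis, 0.45 and 0.48 for chemokines, -0.13 and 0.06 for disease- and development-associated genes, -0.21 and -0.20 for homeostatic genes, -0.14 and -0.06 for lysosomal genes and -0.14 and -0.43 for immediate-early genes, against 0.00 over all tested genes in each class. Ldha, the lactate dehydrogenase of muscle, stood at 1646 and 1597 in Gpnmb positive cells in HI, against 1405 and 1126 in naive libraries (log2 0.36, adjusted p = 0.655). Both HI values of Ldha lay above both naive values. Igf1 had 1041 and 815 in Gpnmb positive cells in HI, against 1339.6 and 988 in naive libraries (log2 -0.32, adjusted p = 0.753).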

How the data were processed

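Single-cell gene expression was measured with the 10x Genomics 5' kit in 2 HI and 2 naive pools of meninges. The authors deposited 1 matrix of raw, unnormalized UMI counts for each library, with genes in rows and barcodes in columns, per the file headers. Cell Ranger 2.2.0 and Seurat are named with the builds mm10 and GRCm38, per the submitters' processing notes, and which step used which is not given in the sources used here. Receptor contig tables of the same pools were read only for the closing observations, with their deposited counts of contigs.

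From the counts, cells were filtered and classed as the opening states. UMIs were summed per library and class, filtered with filterByExpr, scaled with TMM and tested by quasi-likelihood in edgeR 4.0.16 (R 4.3.3, limma 3.58.1), 2-sided, with Benjamini-Hochberg adjustment at 0.05. CPM values are summed counts over TMM-scaled totals, and SE values come from the same fits. The class comparison and the interaction used the library as a block, and the comparisons of HI with naive used none. Shares were compared with an exact permutation test over libraries, with Clopper-Pearson intervals at 95% (scipy 1.17.1). Alternatives were DESeq2 1.42.0 and its size factors, no filter, leaving out each library, other UMI minimums (5 microglia, 3 or 1 Gpnmb), removal of Scrublet-ranked doublets (scanpy 1.11.5, 0.8% per 1000 barcodes, a rank used because the automatic thresholds called few cells), thinning to 5000 UMIs per cell, a replicate block and no library block. Chosen after seeing the data were the scale on total UMIs, thinning of the HI comparisons, and leaving out cells with at least 3 UMIs of stroma, vessel, choroid plexus or neuron markers.

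The members, gene lists and marker lists were chosen with earlier results of these data known. Named genes were the 12 each way with the largest change past the threshold, in 1 direction in 4 libraries and in at least 25% of cells of the higher class. For HI they were up to 10 each way whose HI and naive ranges did not overlap, detected in at least 10% of cells, and where no gene passed, the 5 each way with the smallest p. Further genes are members of the lists, and some results for single genes are not reported here. Symbols are those of the files, in which 58 symbols occur more than once, and near-identical genes share reads in ways the counts cannot show. In simulated data with a change of log2 1, the fits recovered 92.9% of changed genes between classes, 83% between HI and naive in Gpnmb positive cells, 82% in Gpnmb zero cells and 61% in the interaction. Unchanged genes called in these runs were 13, 16, 7 and 18 in the same order. Changes were placed only in genes above a minimum of summed UMIs, and all simulated libraries shared 1 mean profile. These percentages therefore do not hold for genes with few UMIs, and uncalled genes cannot be read as unchanged.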

Additional observations from a re-analysis of the deposited data

Results flagged for a closer look

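Vim was marked because its HI effect differed between the classes by the test of the difference itself. The HI effect was larger in Gpnmb positive than in Gpnmb zero microglia-like cells by 1.69 on the log2 scale (edgeR, adjusted p = 0.00411), and it was called in 11 of the 12 alternatives. Without the 6 Gpnmb positive and 116 Gpnmb zero cells that held markers of stroma, vessels, choroid plexus or neurons it was 1.24 with an adjusted p of 0.767. In Gpnmb positive cells, 1 cell held 20.2% of the Vim UMIs of HI 1 and another 13.4% of those of HI 2.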

How the results depend on the processing

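The 24 named genes of the class comparison kept direction and call in all 14 alternatives. The number of genes called between the classes was 2272 with DESeq2 (1490 higher, 782 lower), 4241 with no filter (2014 higher, 2227 lower), 1691 after thinning and 5705 on total UMIs (924 higher, 4781 lower), and leaving out 1 library gave 2742 to 3351. Between HI and naive, the calls in Gpnmb positive cells were 2 with DESeq2, 101 with no filter and 11 to 39 leaving out 1 library, and 0 in the other alternatives without a replicate block. Leaving out 1 library leaves an arm with 1 sample, which is assumed to vary like the others. In Gpnmb zero cells they were 144 with DESeq2, 1065 with no filter, 48 after thinning, 116 without cells holding stroma, vessel, choroid plexus or neuron markers, and 1 to 879 leaving out 1 library. In all microglia-like cells they were 120 with DESeq2, 736 with no filter, 6 with doublets removed, 26 without those marker-holding cells, and 1 to 550 leaving out 1 library. Interaction calls were 2 with DESeq2, 65 with no filter, 3 with doublets removed, 3 at 5 microglia UMIs, 2 at 3 Gpnmb UMIs, 15 after thinning, 0 without the marker-holding cells, and 9 to 87 leaving out 1 library. The share's log2 ratio ran from -0.40 to 0.16 leaving out 1 library, and turned to 0.16 without HI 2. Over the same alternatives in all microglia-like cells, Gpnmb ran from -0.90 to 0.052, Spp1 from -0.18 to 0.59, Csf1 from -0.15 to 0.64 and Lag3 from -0.29 to 0.038. Tmem160 turned to 0.090 after thinning. The cause of these changes was not tested.

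The labels number the pools 1 and 2 in each group but do not tie a number to a run, so whether the numbers pair the pools is not known and they were not used as pairs. With the number as a replicate block, calls between HI and naive were 131 in Gpnmb positive cells, 722 in Gpnmb zero cells and 599 in all microglia-like cells, and the share's log2 ratio was -0.12. Same-numbered pools deviated together with correlations of 0.32 in Gpnmb positive, 0.06 in Gpnmb zero and 0.15 in all microglia-like cells, over 2 pairs. With 71 to 104 Gpnmb positive cells per library, a single cell can carry a large part of a gene's UMIs, and differences between 2 and 2 pools smaller than the spread of pools were not detectable.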

Other observations

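Single cells set several inflammatory levels in the Gpnmb positive sums. In HI 1, 1 cell held 234 of 237 UMIs of Il1b, the precursor of interleukin-1 beta, 113 of 120 UMIs of the chemokine Ccl7 and 246 of 390 UMIs of the chemokine Ccl2. In HI 2, single cells held 57 of 57 UMIs of Ifit3, 33 of 33 of Rsad2, 60 of 66 of Isg15 and 22 of 23 of Ifit1, genes induced by interferon, and 43 of 43 of the chemokine Ccl5. These genes were picked after their values were seen. The interferon response list had a median difference of the HI effect of 1.26 between the classes. Of its 22 tested genes 0 were called, against 1 of 10863 over all tested genes. Because single cells of HI 2 held most UMIs of several interferon genes, the genes of this list are not separate observations.

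Immunoglobulin heavy chain RNA was found in microglia-like cells of both classes. Ighm stood at 139, 189, 189 and 244 CPM in Gpnmb positive cells of HI 1, HI 2, naive 1 and naive 2, against 161, 207, 207 and 246 in Gpnmb zero cells, and 84.3% of Gpnmb positive and 82% of Gpnmb zero cells held a UMI (edgeR, log2 -0.12, adjusted p = 0.130). In the B-cell receptor tables of the same pools, contigs were listed for 41% to 60.6% of Gpnmb positive and 35.4% to 50.6% of Gpnmb zero cells, against 6.83% to 16% of all kept cells. The 284 contigs of Gpnmb positive cells included 237 of IGHM, 0 with a V gene, 0 called productive and 0 light chains, and the 1550 of Gpnmb zero cells included 7 with a V gene, 5 called productive and 8 light chains. Cd79b was detected in 72.1% of Gpnmb positive and 64.3% of Gpnmb zero cells, while Cd79a had 0 UMIs in Gpnmb positive cells, which allows a share of up to 0.890% of cells with a UMI. The source of this RNA was not tested.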
